A study of Mus musculus with 2 samples.

Results

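Muscle miRNAs are the small RNAs cut from 9 mouse hairpin genes, chosen by name: Mir206, Mir133b, Mir1a-1, Mir1a-2, Mir133a-1, Mir133a-2, Mir208a, Mir208b and Mir499. The rule matches gene symbols and sets no threshold on a measured value, but the set was drawn up with earlier results of these data known. Of these 9 genes, 8 were among the 1973 miRNA genes listed in the count files, and 5 of the 8 had a sense count, that is, a read on the gene's own strand. Mir1a-2 was not listed.

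MicroRNAs are short RNAs that pair through their seed, bases 2 to 8 from the 5′ end, with messenger RNAs and repress them. The muscle set falls into families. Mir1 and Mir206 are relatives with a common seed, and Mir133 hairpins lie beside them in bicistronic units that the myogenic transcription factors switch on as myoblasts differentiate. Mir208a, Mir208b and Mir499 lie in myosin heavy chain genes and are made with their host transcripts, which are best known from heart and slow muscle fibres. In the limb bud, muscle precursors migrate in from the somites and start to differentiate only after they have settled there.

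The data are microRNA-seq counts of limb tissue from healthy B6NCrl mouse embryos at embryonic day 11.5, both sexes pooled. The 2 libraries are biological replicates of 1 group, for which no genetic change or treatment is labelled: replicate 1 pooled 109 embryos and replicate 2 pooled 88. Both carry 1 donor identifier whose meaning is not stated, so p-values measure only the spread between these libraries, which may be technical. No other tissue, age or treatment was analysed here. Counts per library are given as CPM, the sense count scaled to library size, over totals of 2953085 and 3459176. Counts of different hairpins were compared without a length correction, because each mature arm is 21 to 23 bases long.

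Mir206 and Mir133b form a unit on chromosome 1 of the mm10 assembly, plus strand, with 3686 bases between them. Mir206 (ENSMUSG00000065559.1) lies at chr1:20679010-20679082 and Mir133b (ENSMUSG00000065480.1) at chr1:20682769-20682887. Each overlaps an annotated exon of the long noncoding RNA gene Gm28653 on the same strand. RefSeq (GRCm38.p6) gives their hairpins as follows, with both mature arms in capitals; they are shown because these are the members that carried most of the counts.
Mir206: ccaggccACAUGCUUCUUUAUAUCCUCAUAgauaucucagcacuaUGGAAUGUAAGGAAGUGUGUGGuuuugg
Mir133b: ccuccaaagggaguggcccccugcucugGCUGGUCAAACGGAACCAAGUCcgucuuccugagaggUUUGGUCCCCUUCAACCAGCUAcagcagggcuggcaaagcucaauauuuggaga

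A second unit holds Mir1a-1 (ENSMUSG00000070144.1), at chr2:180389048-180389124, and Mir133a-2 (ENSMUSG00000065460.1), at chr2:180398379-180398482, both on the plus strand with 9254 bases between them and no overlapping annotated gene. The third unit holds Mir133a-1 and Mir1a-2. The myosin-hosted genes sit in introns on the strand of their hosts. Mir208a (ENSMUSG00000065432.1), at chr14:54949060-54949142, lies in Myh6, the alpha cardiac myosin heavy chain. Mir208b (ENSMUSG00000077928.1), at chr14:54975700-54975776, lies in Myh7, the beta form used in heart and slow skeletal fibres. Only 26557 bases separate these hairpins. Mir499 (ENSMUSG00000076312.1), at chr2:155622880-155622958, lies in Myh7b, a related slow myosin gene.

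RefSeq held 11 mature arms for 6 of the members. The 3p arm of Mir1a-1 was not among them, so the seed common to Mir1 and Mir206 cannot be shown in a Mir1 arm. Arms that bear on the family groups are printed 5′ to 3′ with the seed in capitals. They show the other shared seeds and where the copies differ.
miR-206-3p: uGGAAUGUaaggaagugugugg
miR-206-5p: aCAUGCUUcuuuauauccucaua
miR-1a-1-5p: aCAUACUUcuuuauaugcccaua
miR-133b-3p: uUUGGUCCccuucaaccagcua
miR-133b-5p: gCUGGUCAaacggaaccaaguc
miR-208a-3p: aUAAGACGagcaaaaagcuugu
miR-208b-3p: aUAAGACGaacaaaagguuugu
miR-499-5p: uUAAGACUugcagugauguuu

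The seed UAAGACG stood in 2 of the 1738 mature arms in the RefSeq table, miR-208a-3p and miR-208b-3p. MiR-499-5p shares bases 2 to 7 with both and differs at the last seed base, and these 3 were the only arms of the table with those bases. MiR-208a-3p and miR-208b-3p matched at 19 of 22 positions. They differ by G10A, A16G and C18U, with miR-208a-3p first and positions counted from the 5′ end, so each can still be told from the other by a full read. The 5p arms of Mir1a-1 and Mir206 matched at 20 of 23 positions and differ by A5G, G17C and C19U, with miR-1a-1-5p first; the change at position 5 lies in the seed.

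How far a read identifies its gene differed among the members. Mir206, Mir208a, Mir208b and Mir499 shared no stretch of more than 13 bases with any other annotated mouse miRNA hairpin on the same strand, and every 18-base window of their hairpins was found in no other. Mir1a-1 and Mir1a-2 shared a stretch of 28 bases, and Mir133a-1 and Mir133a-2 one of 31 bases. Mir133b shared 21 bases with both Mir133a hairpins, and these are the first 21 bases of miR-133b-3p. A read of that arm therefore names Mir133b only if it reaches base 22, whereas for each of the other 10 arms the first 16 bases sufficed. This was checked against annotated hairpins and not against the whole genome, which was not used here.

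**Figure D1:**
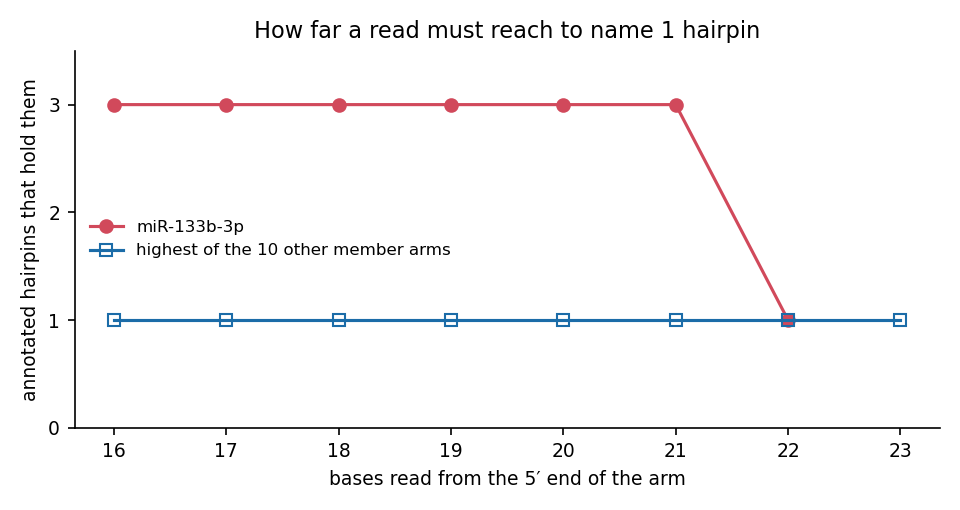
Number of annotated mouse miRNA hairpins (y axis) that hold the first bases of a mature arm, against the number of bases read from its 5′ end (x axis). The red line stays at 3 hairpins for miR-133b-3p until base 22, while the highest value of the 10 other member arms stays at 1 from 16 bases on.

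Reads that fit several places have their own line in the files and are in no gene's count. That line held 1644176 reads in replicate 1 and 1738400 in replicate 2, or 24.7% and 23.4% of all reads. Which genes these reads came from is not recorded. Of the listed genes matched to the annotation, 923 shared a 20-base stretch with another miRNA gene, and 84.7% of them had no sense count in either library. Among the 971 that shared none, 42.0% had none.

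Mir206, whose mature product is specific to skeletal muscle and promotes myoblast differentiation, was the leading member. It had 1561 counts in replicate 1 and 1909 in replicate 2, or 529 and 552 CPM, with Wilson 95% intervals of 503 to 555 and 528 to 577 CPM. These intervals cover counting error only, since PCR copies are not independent molecules. The level was 540.2 ± 16.5 CPM (SD, n = 2), and the libraries could not be told apart beyond counting error. Mir206 alone made up 87.9% of the counts of all members in replicate 1 and 93.5% in replicate 2.

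Among all listed genes Mir206 ranked 118 by mean level of assigned reads. The genes directly above it were Mir186, at 552 ± 32.3 CPM, and Mir300, at 583 ± 9.23 CPM. Directly below stood Mir450b, at 540.2 ± 33.7 CPM, and Mir370, at 539 ± 30.7 CPM (SD, n = 2). Mir206 differed from Mir186, Mir450b and Mir370 by less than the spread between the libraries. A level of 10 CPM in each library was met by 295 genes, or 15.0% of those listed. In bulk tissue, fewer cells of a type and less RNA per cell cannot be told apart.

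Mir133b, whose product acts on proliferation and differentiation of muscle precursors, was far lower than its neighbour. It had 92 counts in replicate 1 and 83 in replicate 2, or 31.2 and 24.0 CPM, with intervals of 25.4 to 38.2 and 19.4 to 29.7 CPM that overlap. Its level of 27.6 ± 5.06 CPM (SD, n = 2) put it at rank 257, between Mir3080 at 27.9 ± 0.19 and Mir7689 at 27.6 ± 0.67 CPM. Mir294, at 28.1 ± 5.24 CPM, and Mir29a, at 26.4 ± 3.88 CPM, were the next genes up and down, and none of the 4 differed from it by more than the spread.

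The Mir206 count was 17.0 times that of Mir133b in replicate 1 (exact 95% interval 13.7 to 21.2) and 23.0 times in replicate 2 (18.5 to 29.0). On the log2 scale the ratio was 4.30 ± 0.31 (SD, n = 2). An exact sign-flip test over 2 libraries cannot go below p = 0.5, so no test of a pair ratio was run. Reads of miR-133b-3p that end before base 22 fit the Mir133a hairpins as well, and reads that fit several places are in no gene's count. Their number is not known, and the aligner settings that decide the fit are not given. The ratio therefore describes assigned reads rather than the 2 mature RNAs.

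The Mir1 and Mir133a genes, which are the most abundant miRNAs of mature skeletal and cardiac muscle, gave no assigned read. Mir1a-1, Mir133a-1 and Mir133a-2 had 0 counts on either strand in both libraries. A count of 0 allows up to 1.02 CPM in replicate 1 and 0.867 CPM in replicate 2, taken as 3 counts. That limit applies only to reads that fit 1 place. In the Mir1a-1 hairpin 49 of 60 windows of 18 bases were found in no other annotated hairpin, among them all of miR-1a-1-5p. The 3p arm of Mir1a-1 was not in the RefSeq table, so whether its reads can be told from Mir1a-2, which shares 28 bases, was not checked. No mature arm of Mir133a-1 or Mir133a-2 was in that table either. A count of windows therefore does not give the part of the reads that could be assigned. In Mir133a-2 such windows made up 66 of 87, and in Mir133a-1 30 of 51. Counted against the 3-count limit of each library, assigned Mir206 reads were at least 520-fold higher than those of Mir1a-1 in replicate 1 and at least 636-fold higher in replicate 2. The levels of mature miR-1 and miR-133a cannot be read from these zeros.

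Mir1a-2 and Mir133a-1 lie on chromosome 18, within the noncoding gene Mir133a-1hg and opposite the gene Mib1. Mir1a-2 is overlapped on the opposite strand by Mir1b (ENSMUSG00000080662.1), which was listed and is named after its values were seen. Mir1b had 14 sense counts in replicate 1 and 11 in replicate 2, or 4.74 and 3.18 CPM. Its opposite-strand column, which covers the strand of Mir1a-2, held 1 count in replicate 1 and 0 in replicate 2, under the 3-count limit. The opposite-strand column was 0 at all 8 listed members.

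**Figure D2:**
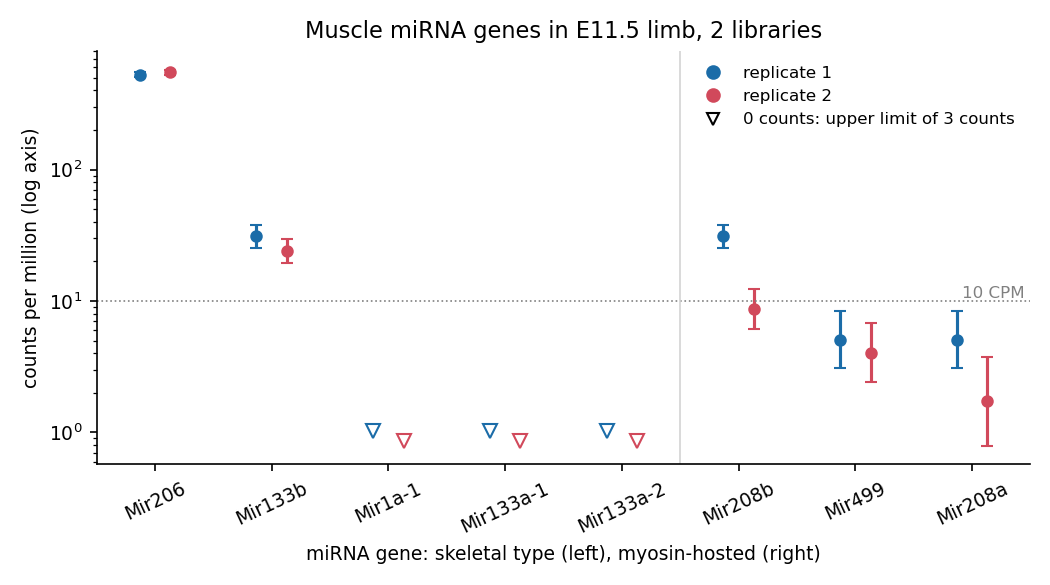
Level of the 8 listed members in CPM on a log axis, for replicate 1 (blue) and replicate 2 (red), with Wilson 95% intervals; open triangles mark the limit that 0 counts allow. Mir206 stands at 529 and 552 CPM, Mir133b between 24.0 and 31.2 CPM, and Mir208b at 31.2 CPM in replicate 1 and 8.67 CPM in replicate 2.

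Mir208b, cut from the Myh7 transcript, was as high as Mir133b in 1 library and much lower in the other. It had 92 counts in replicate 1 and 30 in replicate 2, or 31.2 and 8.67 CPM, and its intervals of 25.4 to 38.2 and 6.08 to 12.4 CPM did not overlap. Mir208a, cut from the Myh6 transcript, had 15 and 6 counts, or 5.08 and 1.74 CPM, with overlapping intervals of 3.08 to 8.38 and 0.795 to 3.78 CPM. Mir499, cut from Myh7b, had 15 and 14 counts, or 5.08 and 4.05 CPM. Its intervals of 3.08 to 8.38 and 2.41 to 6.79 CPM overlapped too. None of the 3 reached 10 CPM in both libraries.

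By mean level of assigned reads, the order was Mir206, Mir133b, Mir208b at 19.9 ± 15.9 CPM, Mir499 at 4.56 ± 0.73 and Mir208a at 3.41 ± 2.37 CPM (SD, n = 2). The 3 genes at 0 came last, but their levels cannot be read from those zeros. Reads of miR-133b-3p that fit several places are also missing from the Mir133b count. Mir133b and Mir208b had equal counts in replicate 1 and differed 2.77-fold in replicate 2 (exact 95% interval 1.80 to 4.35), and their means differed by less than the SD of Mir208b. Mir499 and Mir208a had equal counts in replicate 1, and in replicate 2 the ratio was 2.33 (0.842 to 7.41), so their order is not resolved. Mir499 was below Mir208b in each library, at 0.163 times its count (0.0877 to 0.283) and 0.467 times (0.229 to 0.908).

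**Figure D3:**
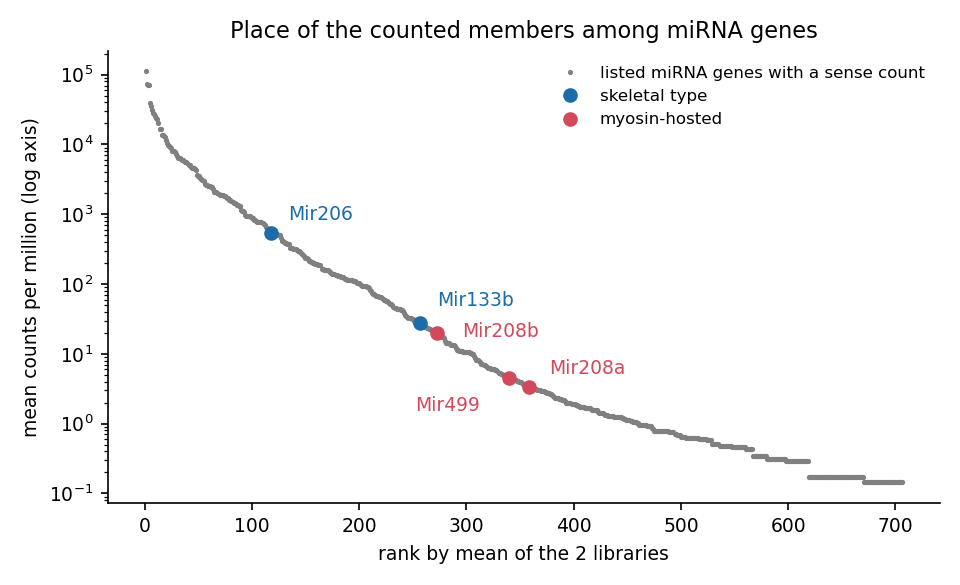
Mean CPM of the 2 libraries (log axis) against rank, for the listed miRNA genes with a sense count; the 5 counted members are labelled. Mir206 lies at rank 118 on the upper slope, Mir133b and Mir208b at ranks 257 and 273, and Mir499 and Mir208a at ranks 340 and 358.

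The spread of each gene between the libraries was tested against counting error by an exact binomial test, two-sided, wherever its counts in both came to 10 or more. Of 422 such genes, 90 passed at a Benjamini-Hochberg adjusted p of 0.05, which is 21.3%; 50 of them were lower in replicate 2 (11.8%) and 40 higher (9.48%). The 5 counted members were tested, and 1 passed, Mir208b. Its log2 ratio of replicate 2 over replicate 1 was −1.84 (counting SE 0.30), a 3.58-fold difference with an adjusted binomial p of 7.46e-10. One call in 5 members is near the background share of all genes and is no result about the set.

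Mir208a was 2.82-fold lower in replicate 2 (counting SE 0.67 on the log2 scale) and did not pass, with an unadjusted binomial p of 0.0264 and an adjusted p of 0.108. Mir499 had a log2 ratio of −0.34 (0.53), with an adjusted binomial p of 0.827, and Mir133b had −0.39 (0.22), with 0.249. Mir206 had 0.05 (0.05), with an adjusted binomial p of 0.613. The median of the 5 ratios was −0.39, beside 0.00 over all tested genes.

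Genes with few counts scatter widely by counting error, so Mir208a and Mir208b were also set beside genes of like depth. Among the 115 tested genes with 20 to 200 summed counts, a range chosen after the counts were seen, the binomial test called 5 (4.35%) in either direction. The median absolute log2 ratio in that range was 0.28, and 8 genes had an absolute ratio of 1 or more, 4 of them lower and 4 higher in replicate 2. Mir208b was the lowest of the 115 and Mir208a the second lowest, followed by Gm24572 at −1.42 and Mir6975 at −1.35, both named after their values were seen. Mir208a, with 21 counts, lies at the lower edge of that range. Below it, 1 of 57 tested genes had a ratio at or under that of Mir208a. Over all 422 tested genes only 2 had a lower ratio than Mir208b.

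The call of Mir208b held in both stricter tests. With the binomial variance widened by the median squared deviation of all tested genes, 48 of 422 genes passed (11.4%), and Mir208b had an adjusted p of 0.000737. An edgeR negative binomial exact test, with 1 common dispersion estimated over all tested genes (a biological coefficient of variation of 15.1%), called 3 of 422 genes (0.711%). They were Mir208b, with an adjusted p of 0.00264, and the 2 genes with lower ratios, Gm26117 at −4.58 and Mir6538 at −3.44. These 2 genes were named after their values were seen.

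**Figure D4:**
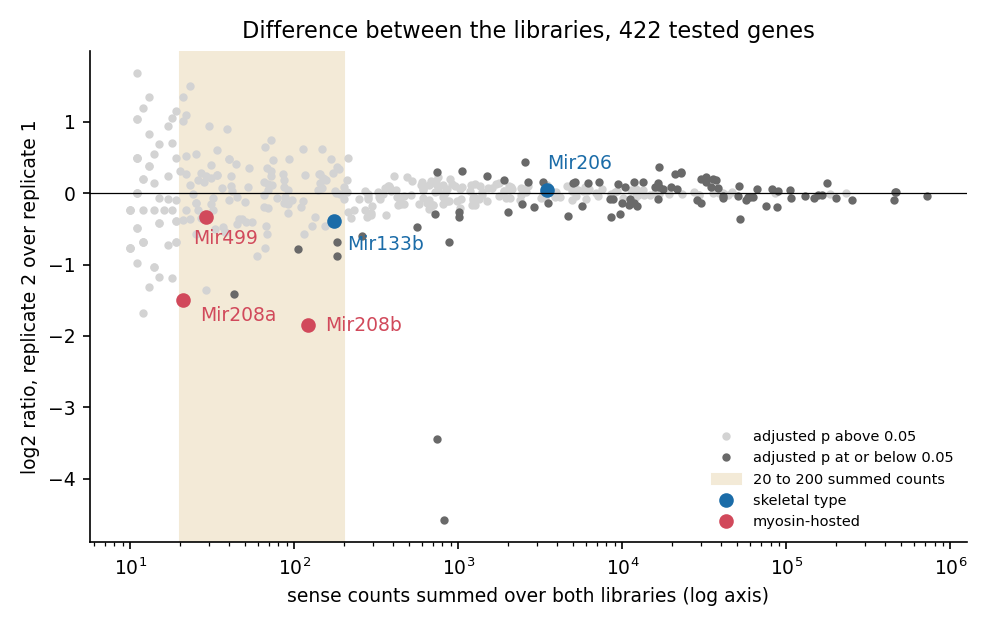
Log2 ratio of replicate 2 over replicate 1 (y axis) against the sense counts summed over both libraries (log x axis) for the 422 tested genes; dark points passed the binomial test, and the shaded band marks 20 to 200 counts. Mir208b, at −1.84, and Mir208a are the lowest points in the band, while Mir206, Mir133b and Mir499 lie nearer 0.

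The proportion of Mir208b to Mir208a differed between the libraries by less than counting error. Mir208b had 6.13 times the counts of Mir208a in replicate 1 (exact 95% interval 3.53 to 11.4) and 5.0 times in replicate 2 (2.05 to 14.7). The difference of the log2 ratios, replicate 2 minus replicate 1, was −0.29, with a counting SE of 0.76. The pair summed to 107 and 36 counts, a 3.48-fold difference in CPM. For Mir499 over Mir208b that difference was 1.52 (counting SE 0.62). The ratio of Mir206 to Mir208b was 17.0 (13.7 to 21.2) in replicate 1 and 63.6 (44.4 to 94.6) in replicate 2, intervals that do not overlap. The ratio of Mir206 to Mir499 was 104 (62.9 to 186) and 136 (81.1 to 250.0), intervals that do.

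Summed by type, the skeletal members held 0.0560% of the counts in replicate 1 and 0.0576% in replicate 2, with overlapping Wilson 95% intervals of 0.0533 to 0.0587% and 0.0551 to 0.0602%. This sum came from Mir206 and Mir133b alone, since Mir1a-1, Mir133a-1 and Mir133a-2 were at 0 and Mir1a-2 was not listed. Reads that fit several places are not in it, so it is a lower limit for the skeletal type. The myosin-hosted members held 0.00413% and 0.00145%, with intervals of 0.00346 to 0.00493% and 0.0011 to 0.00191% that do not overlap. The total of the set therefore differed little, at 0.0596% ± 0.00076 (SD, n = 2), although its myosin-hosted part differed 2.86-fold. Mir208b accounted for most of that difference, with 92 of the 122 myosin-hosted counts in replicate 1 and 30 of the 50 in replicate 2, while Mir499 differed 1.26-fold and neither it nor Mir208a passed the test.

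The summed levels of the other marker lists differed between the libraries by at most 1.47-fold, in both directions. Of 3 erythroid markers, all with counts, Mir451a passed as higher in replicate 2, at 331 against 451 CPM, and the list summed to 379.9 and 490.0 CPM. The other erythroid markers went the opposite way without passing. Mir144 had 36.6 and 30.6 CPM, and Mir486 had 12.9 and 8.67 CPM, so the higher sum came from Mir451a alone. The 3 listed white blood cell markers of 4 named summed to 660.0 and 725 CPM, with none passing. Mir155 held 396 and 431 CPM of these sums. It is also counted among the muscle-acting genes below, as are Mir486, Mir221 and Mir222 of the erythroid and endothelial lists. Liver-specific Mir122 had 21.7 and 14.7 CPM and did not pass (adjusted binomial p = 0.145). Of 8 listed neural markers of 9 named, 4 were at 0 in both libraries and none of the 4 tested passed, with sums of 322 and 336 CPM. Reads that fit several places are in none of these counts, so the zeros and sums do not give levels of the mature RNAs. Smooth muscle markers summed to 5436 and 6260 CPM, with Mir143 passing as higher in replicate 2 and Mir145a not passing. The 3 endothelial markers, led by Mir126a, summed to 24310 and 24190 CPM, with Mir126a passing as lower in replicate 2 at a log2 ratio of −0.02. Cartilage markers, Mir140 and Mir455, were present in the labelled limb tissue and summed to 15930 and 14250 CPM, with Mir140 passing as lower. The part of any other tissue in the Mir208b difference was not tested.

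**Figure D5:**
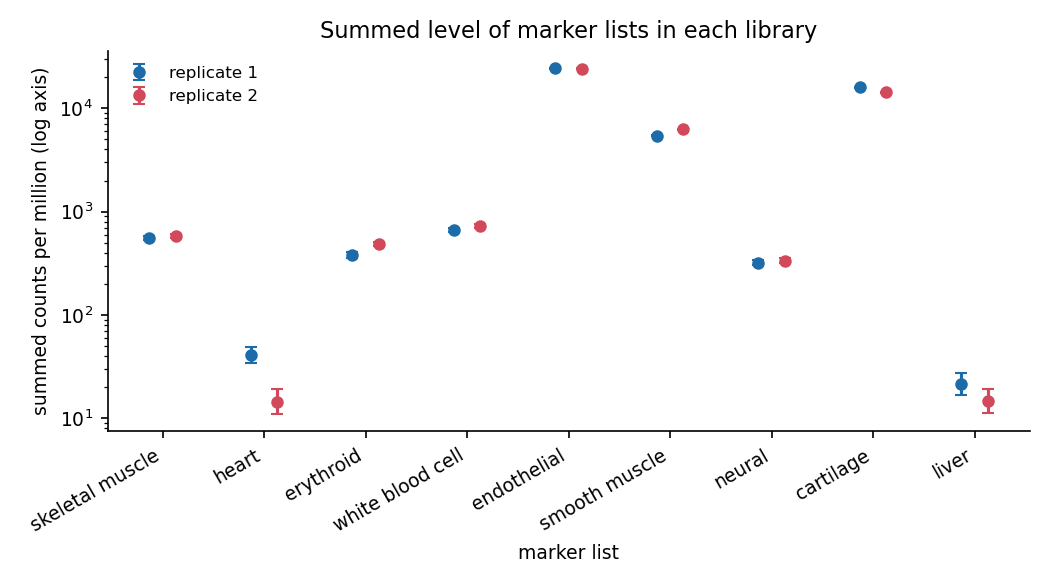
Summed CPM of each marker list (log axis) in replicate 1 (blue) and replicate 2 (red), with Wilson 95% intervals. The list labelled heart is made of Mir208a, Mir208b and Mir499 and stands at 41.3 and 14.4 CPM. It is not specific to heart, since Myh7, the host of Mir208b, is also used in slow skeletal fibres. The skeletal muscle list, with counts from Mir206 and Mir133b only, stands at 559.8 and 576 CPM.

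Many miRNAs outside the set act in muscle cells without being specific to them. Of 27 such genes, 25 were listed (Mir24-1 and Mir378a were not) and 21 reached 10 CPM in both libraries. Together they held 15.5% ± 0.11 of the counts (SD, n = 2), beside 0.0596% for the muscle miRNAs. Both shares leave out reads that fit several places. The muscle miRNA share holds no read of Mir1a-1, Mir133a-1 or Mir133a-2, and Mir1a-2 was not listed, so the shares do not compare amounts of mature RNA. Mir322, which promotes cell cycle exit of myoblasts, led the muscle-acting genes with 72590 CPM, and Mir214, described in mesenchyme and muscle, had 39070 CPM. Mir27b, which targets the muscle precursor factor Pax3, had 2313 CPM. Mir31, which restrains Myf5 in muscle stem cells, had 94.2 ± 3.38 CPM, and Mir489, a miRNA of quiescent muscle stem cells, had 0 counts in replicate 1 and 1 in replicate 2; it was named after its values were seen. Mir206 lay above 13 of those 21 genes in mean CPM and below 8. That order is of assigned reads. Reads that fit several places are left out gene by gene, so it does not rank the mature RNAs.

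Between the libraries 2 of the 22 tested genes of that list passed as higher in replicate 2 and 4 as lower, with a median log2 ratio of −0.05 beside 0.00 for all tested genes. Mir125b-2 had 0.15 and Mir322 0.02 among the higher, and Mir214 had −0.09, Mir503 −0.08, Mir23b −0.06 and Mir23a −0.05 among the lower. These calls rest on many counts and small ratios, whereas Mir208b passed on 122 counts. The 6 calls are 27.3% of those tested, near the background of 21.3%.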

How the data were processed

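The deposited unit is the raw read count per miRNA gene, in 1 file per library, without normalization. The notes deposited with each sample name GENCODE annotation M4 on assembly mm10; aligner, counter and settings: not given in the sources used here. In each file, 1973 genes are listed after 4 lines for reads in no gene, and those lines entered neither library sizes nor tests. Column 3, read as the sense strand because it held nearly all counts, was used.

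Symbols and coordinates were taken from GENCODE M21, also on mm10 (1894 genes matched by identifier, 79 not). Mature arms and hairpins came from RefSeq; sharing was searched in GENCODE M21 hairpins. The exact binomial test used TMM-scaled library sizes (edgeR 4.0.16 in R 4.3.3) and a prior count of 0.5 for log2 ratios. It was tested on simulated counts that vary by counting error only. Such counts cannot show how the test behaves on the wider spread of these libraries. DESeq2 1.42.0 gave size factors for 1 alternative. Other steps ran in Python 3.11.15 (scipy 1.17.1, numpy 2.4.6, pandas 2.3.3). The members and lists were chosen with earlier results of these data known. The named genes were all members, the 2 genes above and below each detected one in level, and detected genes of the fixed lists; genes outside that rule are marked as named after their values were seen. Alternatives covered scaling, filter, test, strand column, denominator, detection level, pseudocount, prior count and each library alone.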

Additional observations from a re-analysis of the deposited data

How the results depend on the processing

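The number of members at 10 CPM in both libraries was 2, and it was 5 at 1 CPM and 1 at 100 CPM. It ranged from 2 to 3 with either library left out, since Mir208b reached 10 CPM in replicate 1 only. The share of the muscle miRNAs in the assigned sense counts was 0.0596%. It was 0.0582% over both strands and 0.0271% of all reads, and 0.0590 to 0.0601% with either library left out. The binomial test called 90 genes, against 48 with the variance widened and 3 with the negative binomial test, where 8 of 422 genes had an unadjusted p at or below 0.05; both alternatives allow a wider error by construction. Under each of the 9 alternative settings Mir208b was the only member called, with log2 ratios of −1.84 to −1.80. Its adjusted p-values ran from 5.52e-10 (exact binomial test) to 0.00264 (negative binomial test). Mir208a passed under none. The alternative prior count enters only the log2 ratios, so its calls were the same by construction. The direction of the 5 tested members was the same under the alternatives in which they were tested. Filtering at 50 or more counts left out Mir208a and Mir499. The log2 ratio of Mir206 to Mir133b ranged from 4.08 to 4.52 with either library left out, and that of Mir206 to Mir208b from 4.08 to 5.99. A test between the libraries needs both, so none was made with 1 left out. No paired analysis was possible because the series holds a single group. Depth limits Mir208a and Mir499, which rest on 21 and 29 counts.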
